A study of Mus musculus with 12 samples.

Results

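The genes described here are those that carry glucose carbon in the mouse brain, from glucose transport through glycolysis to pyruvate dehydrogenase, with the pentose phosphate, glycerol phosphate and glycogen enzymes. Members were found by gene symbol from a list drawn up with earlier results of these data known, and the 36 symbols occupied 37 rows of the 31208 genes in the deposited table, since Aldoa stood on 2 rows. The study asked how additional lactate changed the transcriptome of the ischemic brain and sequenced full-length cDNA of brain tissue as long nanopore reads. All 12 animals were C57BL/6 mice aged 8 weeks with no genetic modification, in 3 groups of 4. Sham mice had no ischemia, and the labels record no injection for them. Vehicle-treated ischemic mice received 2 µL of saline in the cerebral ventricle 24 h before occlusion of the middle cerebral artery, and their brains were taken after 6 h of ischemia. Lactate-treated ischemic mice received 2 µL of 100 mmol/L sodium D-lactate on the same schedule, although the sample labels name it only as lactate. The filament model blocks the artery of the left hemisphere alone, the sources do not say for the sequenced samples which part of the brain was taken, although for other assays they name cortex, hippocampus and striatum, and ischemia and the injection cannot be told apart in a comparison with sham.

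Glucose enters brain cells through facilitative transporters, is trapped by hexokinase and is split by glycolysis into pyruvate, which is either reduced to lactate or admitted to mitochondria by pyruvate dehydrogenase. The fructose-2,6-bisphosphate enzymes set the pace at phosphofructokinase, and pyruvate dehydrogenase kinases close the mitochondrial gate. Blocked blood flow cuts off both oxygen and glucose, and several of these genes are textbook targets of the hypoxia-inducible factor, which recognizes a short core sequence.

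Total counts per mouse ranged from 6815920 to 10677224, and the members together held 3.65% to 4.48% of the counts in sham mice, 4.27% to 4.65% in vehicle-treated mice and 4.19% to 4.91% in lactate-treated mice. The first vehicle mouse stood apart from the other 11, with -67.1 on the second principal component of log CPM against -7.5 to 18.5, and it had the deepest library. The values of Hk2, Slc2a3, Pfkfb3, Gpd1, Gpd2, Pdk1, Pdhb and Pygm that it moved are given with and without it. Markers of the labelled tissue were present, with summed neuronal markers (6 genes) at 3810 to 3990 CPM in sham, 3150 to 5040 in vehicle-treated and 3380 to 3830 in lactate-treated mice. The medians of these sums were 3910, 3350 and 3710 CPM. The highest vehicle-treated sum was that of the first vehicle mouse, and the other vehicle-treated mice lay below all sham mice. In bulk tissue, fewer cells of a type and less RNA per cell cannot be told apart.

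The RNA-seq data showed that Slc2a1 was higher in both ischemic groups than in sham, and that Slc2a3 and Gpd1 were higher and Gpd2 lower with lactate, while no other member passed the test. Genes were called higher or lower at an adjusted p under 0.05 in edgeR's quasi-likelihood test over all genes. In vehicle-treated against sham brains, 1 of the 35 members tested was higher, Slc2a1, against 1.29% of all genes called higher. None of the 35 was lower, where 0.182% of all genes were. In lactate-treated against sham brains, 3 of 35 were higher, Slc2a1, Slc2a3 and Gpd1, against 8.76% of all genes, and 1 was lower, Gpd2, against 3.54%. The members' share of higher calls in that comparison, 8.57%, was close to that background, and the share of lower calls, 2.86%, was below its own, so that the calls are values of single genes and not a result about the pathway. Between lactate-treated and vehicle-treated brains none of the 36 members tested was called by edgeR, against 0% of all genes higher and 0.00574% lower, and none had an unadjusted p under 0.05, where 8.84% of all genes did.

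Counts were also taken at a second pair of limits, a fold change of 1.5 or more together with an unadjusted p under 0.05. The study set the same fold and a p under 0.05, without saying at that place whether the p was the adjusted one. At the unadjusted p and fold limits 4 members were higher in vehicle-treated than in sham brains, Slc2a1, Slc2a3, Pfkfb3 and Pdk3, which is 11.4% of the 35 against 6.5% of all genes, and none was lower, against 3.01%. Without the first vehicle mouse the count of 4 became 2. In lactate-treated against sham brains 4 were higher, Slc2a1, Slc2a3, Gpd1 and Pfkfb3, again 11.4% against 11.9% of all genes, and none was lower, against 5.65%. Without sham mouse 4 that count became 2. Lactate-treated and vehicle-treated brains differed in no member at these limits, against 3.76% of all genes higher and 2.47% lower. The members' median log2 fold change was 0.06 for vehicle against sham, 0.04 for lactate against sham and -0.03 for lactate against vehicle, and over all genes tested it was 0.00, -0.03 and -0.03.

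The sequences before the start sites of the members called, or past the p and fold limits, are shown because they hold the core that hypoxia-inducible factors recognize. The letters ACGTG and GCGTG were searched on both strands in the 250 bases before each start of the RefSeq promoter table (GRCm38.p6), which matched 34 of the 36 symbols with 52 promoters. Slc2a3 and Gpd1 had no entry. Each window below is read 5′ to 3′ on the strand of its gene, and capitals mark the match, written as CACGT or CACGC where it lies on the opposite strand.
Slc2a1, chr4:119108697-119108725, + strand: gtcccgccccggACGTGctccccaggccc
Slc2a1, chr4:119108672-119108700, + strand: tccccacagaacCACGCctctcagagtcc
Gpd2, chr2:57238200-57238228, + strand: gcatggccagccCACGTccctgcgagacc
Pfkfb3, chr2:11553973-11554001, - strand: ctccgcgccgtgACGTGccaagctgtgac
Pfkfb3, chr2:11502126-11502154, - strand: acccttctctccACGTGaaagggggctgg
Pdk3, chrX:93832187-93832215, - strand: cgcgcgccgcgtACGTGcggcggcagatc
Pgk1, chrX:106186938-106186966, + strand: gcgtcgtgcaggACGTGacaaatggaagt
Gapdh, chr6:125165801-125165829, - strand: cacacgcttggtGCGTGcacatttcaaaa
Pgk1 and Gapdh are shown as members that hold a match and were not called. The windows are a selection, and further matches before Pfkfb3, Pdk3 and Pgk1 are not printed. The Gapdh window also holds a second match, in lower case. In the second Pfkfb3 window the match is a palindrome, CACGTG, so that it was found on both strands.

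A match of either form stood in 38 of the 52 promoters of members (73.1%), against 38.6% of the 32851 promoters of the table. ACGTG stood in 20 of the 52 (38.5%), against 16.6% of all promoters. The members' windows were also richer in G and C, with a median of 60.2% against 52.4%, and the part of base composition in these shares was not tested. Of the members, 16 held ACGTG in a promoter and 18 did not. The median log2 fold change in vehicle-treated against sham brains was 0.11 for the 15 tested with ACGTG and 0.02 for the 18 without, and in lactate-treated against sham brains it was 0.19 and -0.06. Between lactate-treated and vehicle-treated brains the order turned, with -0.06 for the 16 tested with ACGTG and -0.03 for those without. Gpd2, which was lower, held ACGTG as Slc2a1 did. A match is a description of letters in a window and not a binding site.

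Slc2a1 encodes GLUT1, the glucose transporter of the blood-brain barrier and of astrocytes (Ensembl ENSMUSG00000028645, chr4:119108711-119137983, + strand, GENCODE vM21 on GRCm38). Its level in CPM (its counts scaled to the library total) was 52.5, 36.2, 47.4 and 45.1 in the 4 sham mice, 81.3, 109.3, 144.2 and 109.2 in the 4 vehicle-treated mice and 139.7, 129.7, 104.8 and 122.2 in the 4 lactate-treated mice. Every ischemic mouse stood above every sham mouse, and the lowest ischemic value belonged to the first vehicle mouse. The rise over sham was 2.51-fold with vehicle (log2 fold change 1.33 ± 0.18 SE, 95% interval 1.92-fold to 3.29-fold, adjusted p = 0.00182, n = 4 per group, edgeR) and 2.81-fold with lactate (1.49 ± 0.13, 95% interval 1.21 to 1.77 on the log2 scale, adjusted p = 9.18e-06). Both calls were kept in each of the alternatives, with log2 fold changes of 1.19 to 1.45 and 1.40 to 1.57. Lactate-treated and vehicle-treated mice overlapped, and their ratio of 1.11 had an interval from 0.859 to 1.42 (adjusted p = 0.827).

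The 6 endothelial markers summed to 152 to 159 CPM in sham, 134 to 185 in vehicle-treated and 172 to 219 in lactate-treated mice, and none of the 6 was at 0. In vehicle-treated against sham brains none of the 6 passed the test. In lactate-treated against sham brains, Ly6c1 was higher by 0.86 ± 0.13 on the log2 scale (adjusted p = 0.00136, edgeR) and Slco1a4, a transporter of the barrier, fell by 1.70 ± 0.24 (adjusted p = 0.00073). The 7 astrocyte markers summed to 836 to 1050, 938 to 1040 and 1120 to 1210 CPM. Of the 7 only Gfap, the filament protein of reactive astrocytes, was called, with 34.5 to 73.7 CPM in sham, 91.7 to 255.5 in vehicle-treated and 247.7 to 333.6 in lactate-treated mice (log2 fold change 1.64 ± 0.31 and 2.47 ± 0.18, adjusted p = 0.0201 and 2.0e-06, edgeR). The part of these cell types in the level of Slc2a1 was not tested.

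Markers of other cells also moved in the comparisons with sham. The 5 neutrophil markers summed to 0.446 to 2.77 CPM in sham, 8.8 to 73.2 in vehicle-treated and 16.3 to 40.2 in lactate-treated mice, and S100a8 and S100a9 were called higher in both comparisons. Of the 6 microglial markers, P2ry12 was lower in both and Cx3cr1 with vehicle. With lactate, 2 of the 6 oligodendrocyte markers, Mog and Cnp, were lower (adjusted p = 0.0125 and 0.0131, edgeR), as were 4 of the 5 red blood cell genes. Also with lactate, 1 of the 4 striatal markers was higher, Ppp1r1b, and 1 of the 3 cortex markers was lower, Rorb. The striatal markers summed to 265 to 389 CPM in sham, 137 to 442 in vehicle-treated and 427 to 562 in lactate-treated mice. The cortex markers summed to 58.0 to 71.3, 35.2 to 59.4 and 41.8 to 53.2 CPM. All lactate-treated mice were above all sham mice in the striatal sum and below them in the cortex sum. The 5 choroid plexus markers summed to 1.36 to 5.41 CPM in sham and 10.3 to 19.2 in lactate-treated mice, where Ttr was called higher. In vehicle-treated mice they summed to 4.25 to 1840 CPM, and the second vehicle mouse stood apart, with 1817 CPM of Ttr against 2.64 to 13.8 in the other vehicle-treated mice. Without that mouse the log2 fold change of Slc2a1 with vehicle was 1.34 (adjusted p = 0.00745, edgeR), that of Slc2a3 was 0.67 (adjusted p = 0.0536) and that of Pfkfb3 was 1.46 (adjusted p = 0.122). Their part in the levels of Slc2a3, Gpd1 and Gpd2, as of the other members, was not tested.

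Slc2a3 encodes GLUT3, the neuronal transporter of high affinity (ENSMUSG00000003153, chr6:122727809-122801640, - strand). Its CPM was 53.0, 57.0, 59.5 and 58.6 in sham, 96.6, 71.2, 83.7 and 84.7 in vehicle-treated and 81.5, 118.3, 91.4 and 84.6 in lactate-treated mice. All ischemic mice again lay above all sham mice, with a smaller gap than for Slc2a1. The lactate-treated group was 1.68-fold higher than sham (log2 fold change 0.75 ± 0.13, adjusted p = 0.00297, edgeR). For vehicle against sham the ratio was 1.51 (0.59 ± 0.14), and the adjusted p of 0.0583 missed the threshold. Without the first vehicle mouse, whose value was the highest of its group, the same gene passed at an adjusted p of 0.0481 with a smaller log2 fold change of 0.52. DESeq2 gave an adjusted p of 0.00268 with all 8 mice, and over all alternatives it ranged from 0.00268 to 0.195. The lactate-treated and vehicle-treated groups overlapped, with a ratio of 1.10 (interval 0.87 to 1.39, adjusted p = 0.824).

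Of the reads of this transporter pair, Slc2a1 took 38.9% to 49.8% in sham mice, 45.7% to 63.3% in vehicle-treated mice and 52.3% to 63.1% in lactate-treated mice. The lactate-treated mice did not overlap with sham, while the first vehicle mouse, at 45.7%, lay within the sham range. The shares rest on 787 to 2071 reads per mouse and are a description with no test.

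**Figure D1:**
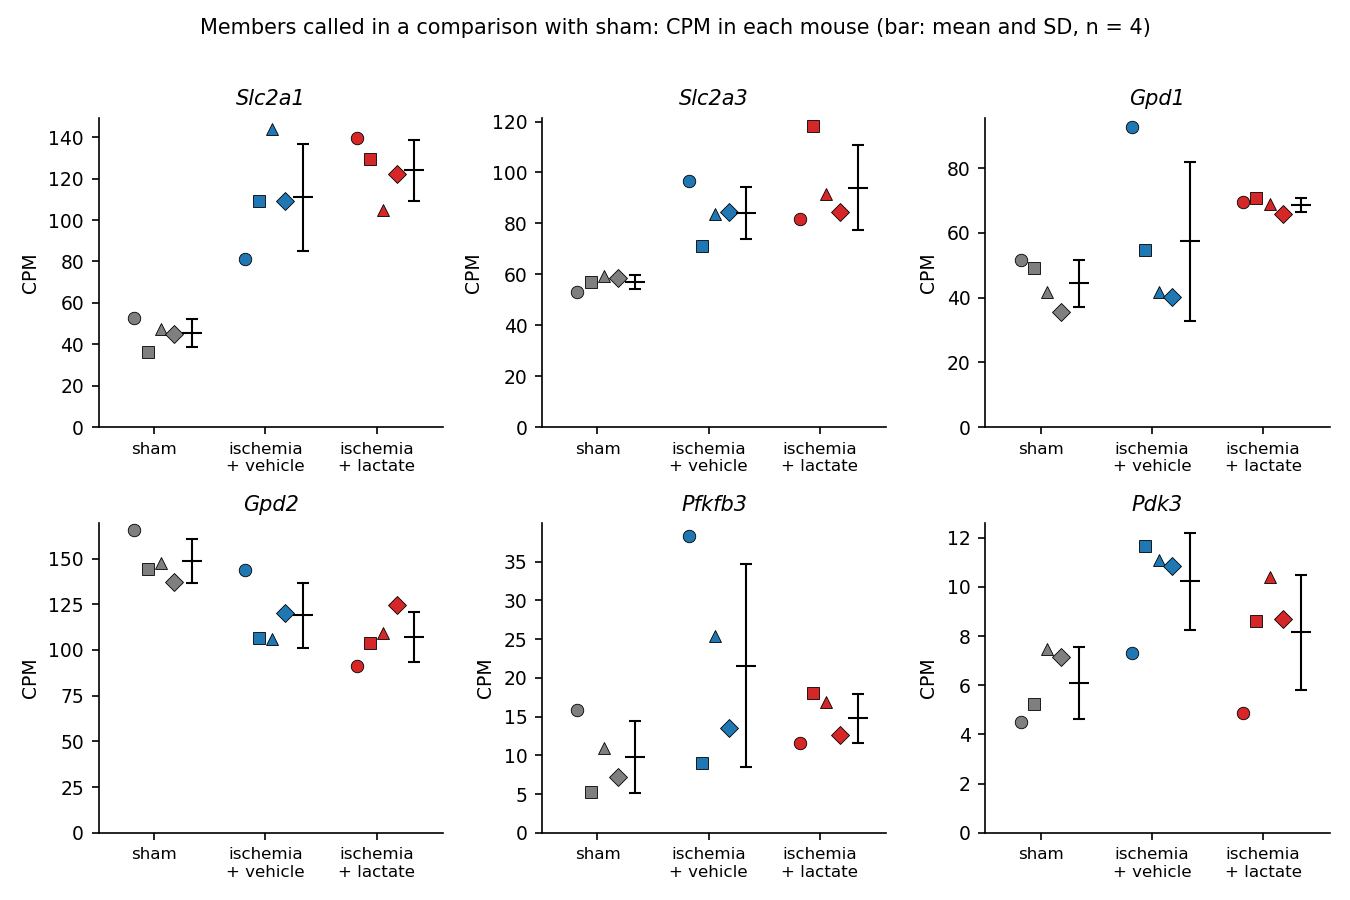
CPM (vertical axes, from 0) of 6 members that were called, or passed the p and fold limits, against sham, in each mouse of the sham (grey), ischemia with vehicle (blue) and ischemia with lactate (red) groups. Marker shapes give the mouse number within its group (circle, square, triangle and diamond for 1 to 4) and do not pair mice across groups, and black bars are mean and SD (n = 4). Slc2a1 and Slc2a3 separated every ischemic mouse from every sham mouse, while the circle of the first vehicle mouse stood at 92.7 CPM of Gpd1 and 38.3 CPM of Pfkfb3.

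Hexokinase phosphorylates glucose as it enters the cell. Hk1, the form of the healthy brain (ENSMUSG00000037012), stood at 139.3, 127.7, 135.8 and 104.8 CPM in sham, 150.9, 123.4, 120.4 and 121.9 in vehicle-treated and 139.1, 167.1, 117.7 and 96.4 in lactate-treated mice. The groups overlapped, with log2 fold changes of 0.06 ± 0.14 and 0.07 ± 0.15 against sham and intervals of 0.851-fold to 1.28-fold and 0.834-fold to 1.32-fold (adjusted p = 0.886 and 0.82, edgeR). Hk2, the form that hypoxia induces, was near the floor of detection of 3 counts, with 2 to 4 counts in sham, 3 to 9 in vehicle-treated and 4 to 11 in lactate-treated mice. It passed the filter on low counts only in the comparison of the ischemic groups, where the log2 fold change of 0.54 ± 0.52 did not pass (adjusted p = 0.792) and was 0.24 without the first vehicle mouse. With no filter on low counts the log2 fold change of Hk2 against sham was 0.94 ± 0.62 with vehicle (adjusted p = 0.562, edgeR) and 1.45 ± 0.52 with lactate (unadjusted p = 0.0119, adjusted p = 0.0872), and neither passed. Its share of the reads of the hexokinase pair was 0.2% to 0.377% in sham, 0.186% to 1.07% in vehicle-treated and 0.446% to 1.31% in lactate-treated mice, so that the lactate-treated mice lay above sham in that share, on 4 to 11 reads each.

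Glucose-6-phosphate isomerase (Gpi1) and the phosphofructokinases, which commit the sugar to glycolysis, were also near their sham levels. In vehicle-treated against sham brains, Gpi1, Pfkl, Pfkm and Pfkp had log2 fold changes from 0.04 to 0.13. In lactate-treated against sham brains the 5 genes tested from hexokinase to phosphofructokinase lay between -0.06 and 0.25, with Pfkl at the top. Pfkl, the liver form, measured 43.5 to 47.9 CPM in sham, 43.2 to 51.8 in vehicle-treated and 49.97 to 59.4 in lactate-treated mice, and the lactate-treated mice lay above all sham mice (0.25 ± 0.11, unadjusted p = 0.0437, adjusted p = 0.17). Pfkm took 68.9% to 74.4% of the reads of the 3 phosphofructokinases in all mice, and Pfkl took 6.24% to 7.92% in sham, 5.73% to 8.20% in vehicle-treated and 7.81% to 8.85% in lactate-treated mice.

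The PFKFB enzymes make and break fructose-2,6-bisphosphate, the activator of phosphofructokinase, and Pfkfb3 is the form induced by hypoxia (ENSMUSG00000026773, chr2:11471433-11554077, - strand). Its CPM was 15.8, 5.2, 11 and 7.2 in sham, 38.3, 9.1, 25.4 and 13.5 in vehicle-treated and 11.6, 18.1, 16.9 and 12.6 in lactate-treated mice. The groups overlapped, and the vehicle-treated mice spread widely. The ratio to sham was 2.29 with vehicle (log2 fold change 1.197 ± 0.42, unadjusted p = 0.0141, adjusted p = 0.232, edgeR) and 1.56 with lactate (0.64 ± 0.28, unadjusted p = 0.0375, adjusted p = 0.155). Without the first vehicle mouse the former fell to 0.76 on the log2 scale (unadjusted p = 0.0713). Without the first sham mouse the latter reached 0.95 and passed (adjusted p = 0.0419), and without the second sham mouse or sham mouse 4 it was 0.44 or 0.53 (unadjusted p = 0.112 and 0.106). A fit with the replicate number as a block called Pfkfb3 higher with vehicle (adjusted p = 0.0216). Between lactate-treated and vehicle-treated brains its log2 fold change was -0.58 ± 0.37 (adjusted p = 0.682, edgeR). Leaving out 1 mouse moved that value to between -0.83 and -0.12, and the highest adjusted p, 0.914, came without the first vehicle mouse.

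Pfkfb2 and Pfkfb4, the other forms, pointed the other way with lactate, and neither passed. Pfkfb2 measured 7.91 to 14.5 CPM in sham, 6.22 to 10.7 in vehicle-treated and 6.23 to 7.65 in lactate-treated mice, with a log2 fold change of -0.54 ± 0.21 for lactate against sham (unadjusted p = 0.0207, adjusted p = 0.108, edgeR). Pfkfb4 measured 4.07 to 6.99, 3.56 to 5.73 and 2.51 to 5.80 CPM, with -0.57 ± 0.30 for lactate against sham (adjusted p = 0.249), and without lactate mouse 4 it passed at -0.95 (adjusted p = 0.0403). Of the reads of the 3 PFKFB genes, Pfkfb3 took 29.6% to 47.6% in sham, 37.6% to 72.9% in vehicle-treated and 48.4% to 67.1% in lactate-treated mice, of 156 to 561 reads per mouse. The lactate-treated mice stood above sham in this share, and the second vehicle mouse, at 37.6%, did not.

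From aldolase to pyruvate kinase, 9 members were tested and none was called in any comparison (0 of 9 at an adjusted p under 0.05 in edgeR). At an unadjusted p under 0.05, 1 of the 9 had such a p with vehicle and 3 of the 9 with lactate, all with fold changes above 1, while 13.8% and 27% of all genes had one. Aldoc, the aldolase of astrocytes, ranged from 5447 to 9090 CPM in sham, from 8686 to 10537 in vehicle-treated and from 8604 to 10341 in lactate-treated mice. The groups overlapped, since the first sham mouse reached the range of the ischemic mice. Its log2 fold changes were 0.36 ± 0.14 and 0.31 ± 0.12 (adjusted p = 0.261 and 0.115, edgeR). Pgk1, phosphoglycerate kinase, had 0.24 ± 0.13 and 0.29 ± 0.11 (adjusted p = 0.435 and 0.112), and Aldoa, the other aldolase, had 0.11 ± 0.09 and 0.19 ± 0.09 (adjusted p = 0.648 and 0.178).

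Gapdh, often used as a reference gene (ENSMUSG00000057666, chr6:125161715-125166467, - strand), measured 15840, 14445, 17191 and 16333 CPM in sham, 13730, 16071, 15734 and 16595 in vehicle-treated and 17066, 14593, 15041 and 15285 in lactate-treated mice. The groups overlapped, and the first vehicle mouse was the lowest of all 12. Against sham the log2 fold change was -0.00 ± 0.09 with vehicle and -0.01 ± 0.08 with lactate, with intervals of 0.871-fold to 1.14-fold and 0.888-fold to 1.11-fold (adjusted p = 0.995 and 0.952, edgeR). Its sign is not a direction, since it turned in 11 of 17 alternatives for the former and 7 of 17 for the latter.

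Pkm, pyruvate kinase (ENSMUSG00000032294, chr9:59656368-59679375, + strand), measured 12260, 10362, 12284 and 11891 CPM in sham, 13402, 11131, 13605 and 12593 in vehicle-treated and 14296, 12763, 11306 and 11885 in lactate-treated mice. The values overlapped in all groups, with log2 fold changes of 0.15 ± 0.09 and 0.14 ± 0.08 (adjusted p = 0.505 and 0.331, edgeR). The other members of this stretch, Tpi1, Pgam1, Eno1 and Eno2, lay between -0.08 and 0.14 in both comparisons with sham. Eno2, the neuronal enolase, took 48.4% to 49.7% of the reads of the enolase pair in sham mice, 50.7% to 55.1% in vehicle-treated mice and 51.5% to 53.8% in lactate-treated mice. Each ischemic mouse was above each sham mouse in this share, although neither gene was called.

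**Figure D2:**
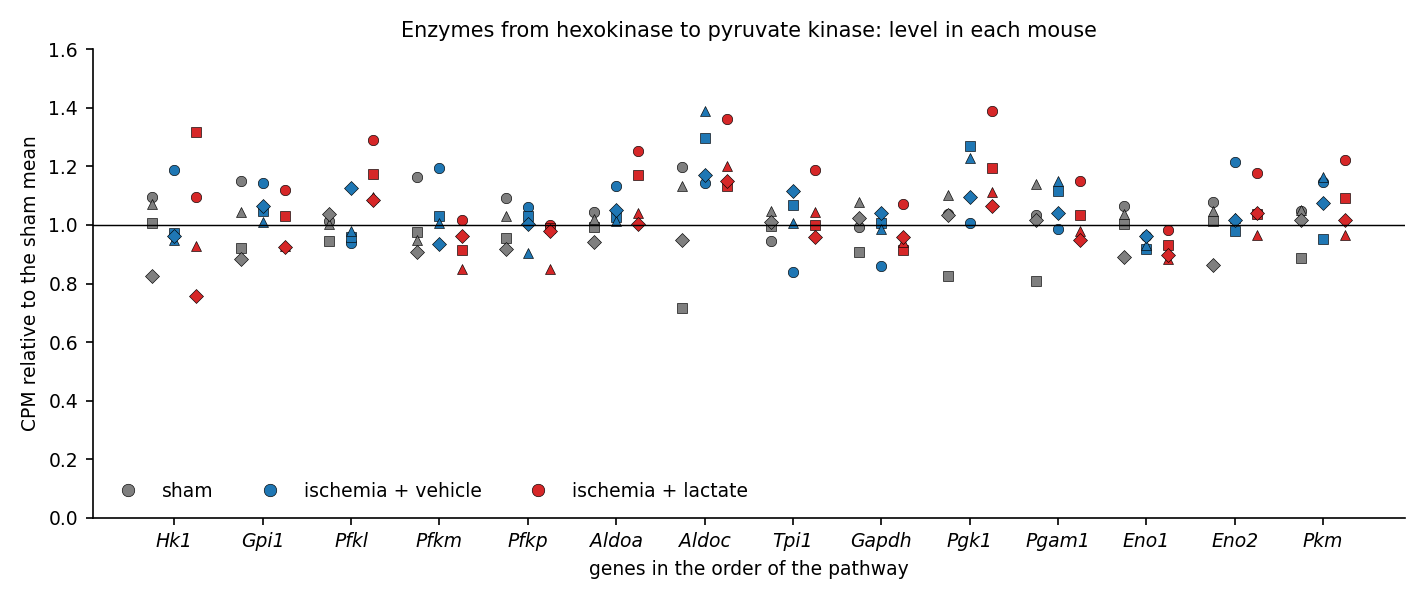
CPM of the 14 enzymes from hexokinase to pyruvate kinase that were tested against sham in each mouse (Hk2 and the second row of Aldoa, with few counts, are not drawn), divided by the mean of the 4 sham mice (vertical axis, from 0, no unit), with sham mice in grey, vehicle-treated in blue and lactate-treated in red, and shapes for the mouse number. All points lay between 0.718 and 1.39 times the sham mean, and sham mice themselves ranged from 0.718 to 1.2.

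Several of these enzymes have near copies elsewhere in the genome, and their levels are uncertain for that reason. The table held 12 other rows with the protein description of Gapdh, whose reads came to 49.1% to 53.6% of the reads of Gapdh in each mouse. A single row outside the known genes carried the description of Pgam1, phosphoglycerate mutase, with reads equal to 83.2% to 95.5% of those of Pgam1. Eno1b held 12.6% to 16.3% of the reads of Eno1. The highest shares of Gapdh, Pgam1 and Eno1 were all in the first vehicle mouse. When such rows were added to the member's own, an alternative chosen after seeing the data, the log2 fold change of Gapdh against sham was 0.00 ± 0.09 with vehicle and -0.01 ± 0.07 with lactate, that of Pgam1 was 0.15 ± 0.12 and 0.07 ± 0.11, and no count of called members changed. The second row of Aldoa (ENSMUSG00000114515) held 1 to 10 counts per mouse and was not tested.

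**Figure D3:**
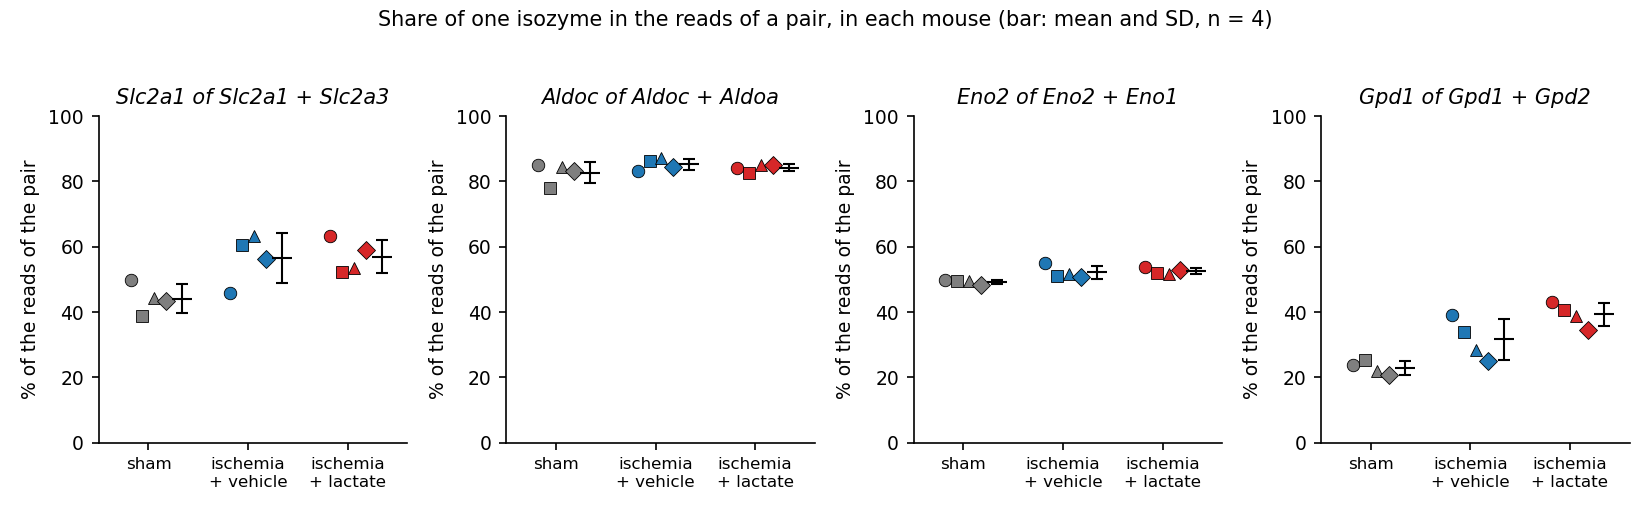
Share of 1 member in the reads of a pair of related members (vertical axes, percent, 0 to 100) in each mouse, with sham in grey, vehicle-treated in blue and lactate-treated in red, shapes for the mouse number, and black bars for mean and SD (n = 4). The share of Gpd1 was 20.6% to 25.3% in sham and 34.6% to 43.2% in lactate-treated mice, with the vehicle-treated mice from 25.1% to 39.2%, while the share of Aldoc overlapped in all groups.

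The glycerol phosphate shuttle moves the electrons of cytosolic NADH into mitochondria. Gpd1 is its cytosolic enzyme and uses the NADH that glycolysis makes (ENSMUSG00000023019, chr15:99717515-99725005, + strand), and Gpd2 is the mitochondrial enzyme that returns glycerol-3-phosphate (ENSMUSG00000026827, chr2:57237635-57370719, + strand). Gpd1 stood at 51.6, 49.0, 41.7 and 35.6 CPM in sham, 92.7, 54.8, 41.8 and 40.2 in vehicle-treated and 69.5, 70.8, 69.1 and 65.7 in lactate-treated mice. The lactate-treated mice lay close together and above all sham mice, while 2 vehicle-treated mice lay within the sham range. Gpd1 was 1.58-fold higher with lactate than in sham (log2 fold change 0.66 ± 0.13, interval 1.31-fold to 1.91-fold, adjusted p = 0.0055, edgeR). That call was lost in the fit of all 12 mice together, which shares 1 estimate of the spread (adjusted p = 0.081). With vehicle the log2 fold change was 0.41 ± 0.25 (adjusted p = 0.507), and without the first vehicle mouse it was 0.07 (adjusted p = 0.87).

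The direct comparison of lactate with vehicle gave a log2 fold change of 0.23 ± 0.24 for Gpd1 (interval 0.813-fold to 1.69-fold, adjusted p = 0.808, edgeR). Without the first vehicle mouse it was 0.58 (unadjusted p = 0.00161, adjusted p = 0.297). Neither value passed at an adjusted p under 0.05.

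Gpd2 was 165.6, 144.6, 147.6 and 137.4 CPM in sham, 144.0, 106.5, 105.9 and 120.0 in vehicle-treated and 91.4, 103.6, 109.0 and 124.5 in lactate-treated mice. All lactate-treated mice lay below all sham mice, and among the vehicle-treated mice only the first was within the sham range. Gpd2 fell by 0.44 ± 0.11 on the log2 scale with lactate (0.736-fold of sham, interval 0.627-fold to 0.865-fold, adjusted p = 0.0176, edgeR). Without the first sham mouse, the highest of its group, the adjusted p was 0.0504. With vehicle the log2 fold change was -0.28 ± 0.14 (adjusted p = 0.384), and between the ischemic groups it was -0.18 ± 0.15 (interval 0.707-fold to 1.11-fold, adjusted p = 0.755), or -0.06 without the first vehicle mouse. Leaving out 1 mouse moved the vehicle value of Gpd2 to between -0.39 and -0.22, with adjusted p from 0.101 to 0.628 (edgeR).

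At the entry of pyruvate into mitochondria, none of the 7 members tested was called in a comparison with sham. The kinases Pdk1, Pdk2 and Pdk3 switch off pyruvate dehydrogenase, and Pdk3 showed the largest ratio of the 3 (ENSMUSG00000035232, chrX:93764607-93832201, - strand). Its CPM was 4.48, 5.24, 7.47 and 7.15 in sham, 7.31, 11.7, 11.1 and 10.9 in vehicle-treated and 4.87, 8.62, 10.4 and 8.70 in lactate-treated mice. The first vehicle mouse and the first lactate mouse lay within the sham range, and the other 6 ischemic mice lay above it. The ratio to sham was 1.71 with vehicle (log2 fold change 0.78 ± 0.24, unadjusted p = 0.00681, adjusted p = 0.17, edgeR) and 1.37 with lactate (0.45 ± 0.25, adjusted p = 0.277). These values rest on 34 to 90 counts per mouse.

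Pdk1, the kinase that hypoxia induces in many cells, measured 4.32 to 7.12 CPM in sham, 5.28 to 8.99 in vehicle-treated and 2.99 to 6.03 in lactate-treated mice. Its log2 fold change was 0.16 ± 0.26 with vehicle and -0.39 ± 0.26 with lactate against sham, and the direct comparison of lactate with vehicle gave -0.57 ± 0.29 (interval 0.435-fold to 1.04-fold, adjusted p = 0.591, edgeR). Pdk2 took most reads of the 3 kinases in every mouse, from 54.9% to 79.4%, with 0.11 ± 0.16 and 0.23 ± 0.18 against sham. The highest share was that of the first lactate mouse, the other lactate-treated mice being at 60.4% to 62.8%, and the lactate value of Pdk2 was 0.07 without that mouse, 0.15 without sham mouse 4 and 0.37 without the second lactate mouse. Without the first vehicle mouse, the highest of its group, the vehicle value of Pdk1 was -0.07 and the direct one -0.33, and without lactate mouse 4 the direct one was -0.77 (adjusted p = 0.92, 0.69 and 0.538). The dehydrogenase subunits Pdha1, Pdhb and Dlat lay between -0.14 and 0.19 in both comparisons with sham. Pdha1 measured 113.8 CPM in the first vehicle mouse against 169.4 to 201.3 in the other vehicle-treated mice. Leaving out 1 mouse moved its vehicle value from -0.04 to between -0.13 and 0.11, and the sign turned in 4 of 17 alternatives. Without the first vehicle mouse, the lowest of its group, the vehicle value of Pdhb went from -0.00 to 0.18 (adjusted p = 0.572, edgeR). Between lactate-treated and vehicle-treated brains Pdhb had 0.18 ± 0.19 (adjusted p = 0.81). Leaving out 1 mouse moved that value to between -0.004 and 0.26, and the highest adjusted p, 0.9885, came without the first vehicle mouse. Pcx, pyruvate carboxylase, which astrocytes use to refill the citric acid cycle, measured 20.1 to 38.0 CPM in sham, 22.0 to 33.4 in vehicle-treated and 19.4 to 27.9 in lactate-treated mice. With lactate its log2 fold change was -0.43 ± 0.19 (unadjusted p = 0.0371, adjusted p = 0.154), and without sham mouse 4 it passed at -0.59 (adjusted p = 0.0357).

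The pentose phosphate pathway branches from glucose-6-phosphate and supplies NADPH. Its members G6pdx, Pgd, Tkt and Taldo1 all had log2 fold changes below 0 against sham, from -0.28 to -0.03 with vehicle and from -0.16 to -0.02 with lactate, and none passed, the lowest adjusted p being 0.615 and 0.599 (edgeR). The shared sign was not stable, since with lactate it turned for Taldo1 in 5, for Tkt in 1 and for G6pdx in 1 of 17 alternatives, and with vehicle for Taldo1 in 2. Without the second sham mouse Tkt went from -0.19 to -0.00 with vehicle and from -0.16 to 0.02 with lactate, and Pgd from -0.15 to -0.02 with lactate. Leaving out 1 mouse moved the vehicle value of Pgd to between -0.38 and -0.14, and that of G6pdx to between -0.35 and -0.13. G6pdx, the first enzyme, measured 6.04 to 7.69 CPM in sham, 4.55 to 7.10 in vehicle-treated and 4.22 to 8.11 in lactate-treated mice. The interval of its ratio to sham ran from 0.613 to 1.2 with vehicle and from 0.657 to 1.29 with lactate. Tkt, transketolase, spread from 81.3 to 140.9 CPM among sham mice and from 90.6 to 94.0 among vehicle-treated mice.

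The glycogen members were Pygb and Pygm, phosphorylases that release glucose phosphate, and Gys1, the synthase. None of the 3 was called, with log2 fold changes from -0.29 to 0.11 for vehicle and from -0.31 to 0.41 for lactate against sham (adjusted p of 0.61 or more and of 0.315 or more, edgeR). Pygb was 37.1 to 51.1 CPM in sham and 33.5 to 37.0 in lactate-treated mice, with a log2 fold change of -0.23 ± 0.14 (adjusted p = 0.315). The nearest mice of these groups differed by less than 0.1 CPM, and without the second sham mouse the log2 fold change was -0.10. Pygm, the form of muscle and astrocytes, spread from 4.19 to 14.4 CPM within the sham group alone, and without the first vehicle mouse its log2 fold change with vehicle turned from 0.11 to -0.16. Leaving out other mice moved the vehicle value as high as 0.49. With lactate the value of Pygm, 0.41, was 0.79 without the first sham mouse (adjusted p = 0.0833, edgeR), 0.20 without sham mouse 4 and 0.27 without the first lactate mouse. Gys1 held 32 to 54 counts per mouse.

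**Figure D4:**
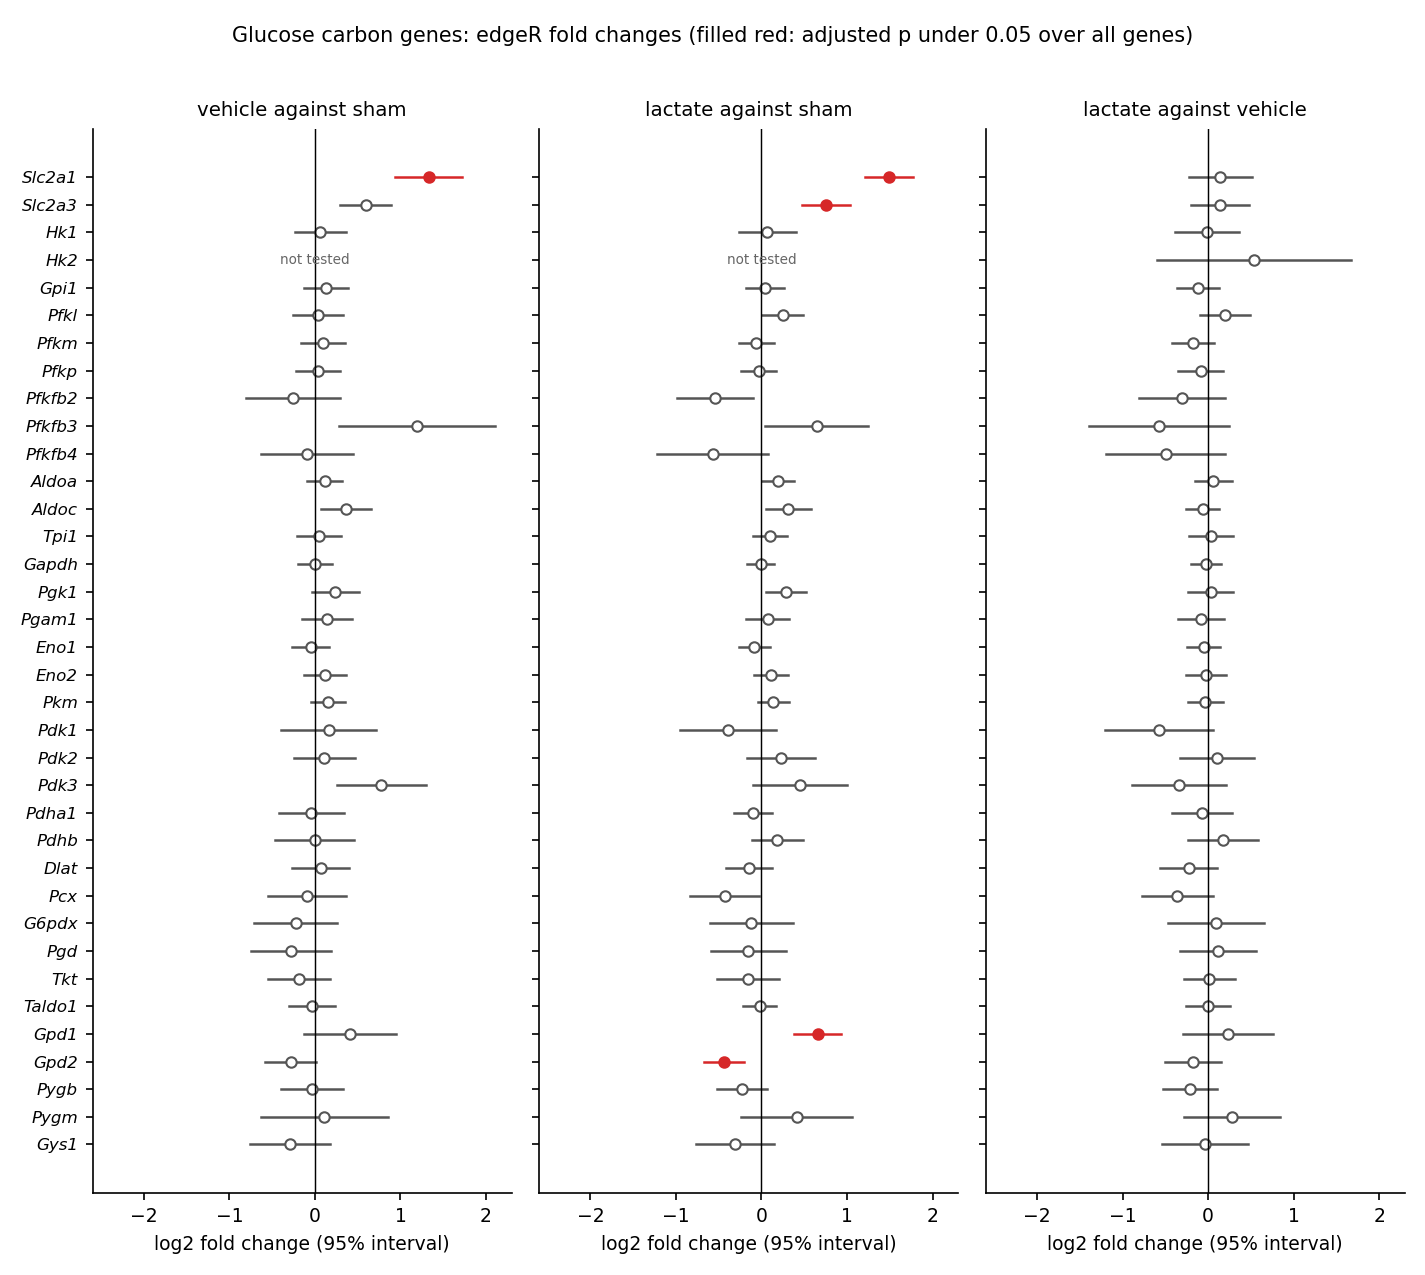
Log2 fold changes (horizontal axes) of the 36 members in the order of their roles, for vehicle against sham, lactate against sham and lactate against vehicle, with 95% intervals from edgeR as lines. Filled red points had an adjusted p under 0.05 over all genes, which were Slc2a1 in the first panel, Slc2a1, Slc2a3, Gpd1 and Gpd2 in the second and none in the third, where every interval crossed 0.

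A second list held 73 further genes of the same pathways, and 54 of them passed the filter in each comparison. In vehicle-treated against sham brains 1 of the 54 was higher, Txnip (1.85%, against the 1.29% of all genes), and none was lower. In lactate-treated against sham brains Txnip and Ldha were higher (3.7%, against 8.76% of all genes) and Hkdc1 and Epm2a were lower (3.7%, against 3.54%). Between the ischemic groups none was called and 3 had an unadjusted p under 0.05 (edgeR), where 8.84% of all genes had one. At the p and fold limits, 3 of the 54 were higher (5.56%, against 6.5% of all genes) and 1 was lower (1.85%, against 3.01%) with vehicle. With lactate 2 were higher (3.7%, against 11.9%) and 5 were lower (9.26%, against 5.65%), and between the ischemic groups none was higher and 2 were lower (3.7%, against 2.47%). The medians of the 54 were -0.02, -0.15 and -0.15 on the log2 scale.

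Txnip, an arrestin that glucose induces and that takes GLUT1 off the cell surface, was called higher in both comparisons with sham. It measured 5.80, 3.57, 5.43 and 3.95 CPM in sham, 11.99, 11.1, 12.9 and 12.6 in vehicle-treated and 7.03, 12.5, 8.18 and 11.9 in lactate-treated mice, and every ischemic mouse was above every sham mouse. Its log2 fold change was 1.42 ± 0.21 with vehicle (adjusted p = 0.00387, edgeR) and 1.12 ± 0.24 with lactate (adjusted p = 0.00965).

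Ldha, the lactate dehydrogenase subunit that favours lactate production, was 734 to 774 CPM in sham, 781 to 970 in vehicle-treated and 803 to 1098 in lactate-treated mice, with 0.39 ± 0.10 for lactate against sham (adjusted p = 0.0285, edgeR) and 0.26 ± 0.10 for vehicle against sham (adjusted p = 0.283). Hkdc1, a hexokinase-like enzyme, was 6.93 to 10.7, 4.55 to 9.46 and 3.16 to 7.30 CPM and fell by 0.94 ± 0.27 with lactate against sham (adjusted p = 0.0389). Epm2a, the glycogen phosphatase laforin, was 5.80 to 7.78, 3.11 to 4.87 and 3.11 to 4.17 CPM and fell by 0.76 ± 0.20 with lactate (adjusted p = 0.027), with -0.69 ± 0.23 with vehicle (adjusted p = 0.198). Both groups of ischemic mice lay below all sham mice for Epm2a. None of these 4 genes differed between lactate-treated and vehicle-treated brains, with adjusted p from 0.647 to 0.943.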

How the data were processed

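Total RNA of brain tissue from 12 mice, 1 library per mouse, was sequenced by the authors as full-length nanopore cDNA. The deposited table holds whole-number read counts per gene, which the authors made after filtering reads and aligning them with minimap2 to GRCm38, with pinfish and gffcompare for new loci. The annotation release and the counting method are not given in the sources used here. The CPM values, also deposited by the authors, equal the counts divided by the library total. Further deposited columns hold the authors' edgeR p-values and log2 fold changes and were not used. The submitters' processing notes name DESeq 1.10.1. Lines without a gene (4, with no counts) were left out.

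Groups came from the labels. Genes that reached 1 CPM in 4 or more of the 8 mice compared were tested with edgeR 4.0.16 (R 4.3.3, quasi-likelihood, TMM, Benjamini-Hochberg adjustment over all genes tested), each comparison in a fit of its own. SE and 95% intervals are from that fit. Alternatives used DESeq2 1.42.0, limma 3.58.1, other filters and scalings, and left out each mouse. Tables and figures were made in Python 3.11.15. The test was tried on simulated counts. Members and lists were chosen with earlier results of these data known. By the rule for named genes, values in every mouse were given for members called at an adjusted p under 0.05 or past the p and fold limits in any comparison and for Gapdh, Pkm and Hk1, the other members by range and counts, and from the other lists genes called at an adjusted p under 0.05. Reads carried no molecular identifiers, and a floor of 3 counts was used. The 95% intervals include the spread between mice that the fit estimated, and not counting error alone.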

Additional observations from a re-analysis of the deposited data

Results flagged for a closer look

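In 7 cases a single mouse lay farther from the other 3 of its group than Dixon's test allows at the 95% level, out of 111 groups of 4 mice (37 members in 3 groups). Chance marks about 1 group in 20 where groups are independent. The members of a group come from the same libraries, so that 7 of 111 cannot be read against that share. The first vehicle mouse, which also stood apart on the second principal component, gave 5 of the 7. In it Hk1 measured 150.9 CPM against 120.4 to 123.4 in the other vehicle-treated mice, Pdk1 8.99 against 5.28 to 5.73 and Pygm 12.7 against 6.75 to 7.51. Pdhb, a pyruvate dehydrogenase subunit, was low in the same mouse at 189.6 CPM against 354.6 to 378.7, as was Pygb at 32.0 against 41.8 to 43.1. The other cases were in lactate-treated mice. Pfkp measured 119.7 CPM in lactate mouse 3 against 138.1 to 141.0 in the others, and Pfkfb4 measured 5.80 in lactate mouse 4 against 2.51 to 2.70.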

How the results depend on the processing

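Slc2a1 kept its call against sham in both comparisons, and Slc2a3 with lactate, under each of the 17 alternatives. For vehicle against sham the number of members called higher went from 1 to 2 with DESeq2, with limma voom and with 1 fit of all 12 mice, in each case by Slc2a3, and with the replicate block, by Pfkfb3. Leaving out each mouse gave 1 to 2, and 2 to 4 at the p and fold limits. For lactate against sham, leaving out each mouse gave 0 to 2 members called lower. The count of 0 came without sham mouse 1, which lost Gpd2, and the count of 2 without sham mouse 4, which added Pcx, or without lactate mouse 4, which added Pfkfb4. At the p and fold limits this range was 2 to 5 higher and 0 to 2 lower, and 1 was lower with no filter on low counts. For lactate against vehicle it was 0 to 2 lower. No member reversed its direction while called.

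Samples with the same replicate number correlated by -0.162 to 0.164 in their deviations from group means, so the numbers were not taken as pairs, and the replicate block called 198 genes in vehicle against sham where the fit without it called 250. Over all genes that comparison gave 477 calls with DESeq2, 395 with limma voom and 149 with a CPM of at least 1 in all 8 mice. Lactate against sham gave 2123 calls, and 1003 with only Ensembl genes. Lactate against vehicle gave 1 call, and 61 with DESeq2, none of them a member, and 3 members had an unadjusted p under 0.05 without vehicle mouse 1 or without lactate mouse 4. Low counts limit the precision of Pdk1 (25 to 96 per mouse), Pdk3 (34 to 90), G6pdx (31 to 69) and Gys1 (32 to 54).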
